A study of Mus musculus with 15 samples.

Results

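The genes described here are those of the major histocompatibility complex (MHC) and of antigen presentation in the tarsal joint of the mouse. They were taken by name: every gene whose array symbol starts with H2-, the mouse name of the MHC, and Cd74, Ciita, B2m, Tap1, Tap2, Tapbp, Nlrc5, Erap1, Cd1d1 and Mr1. Of 19938 genes measured by a probe set that names 1 gene, 39 met the rule, which goes by name. They divide into 10 genes of class II, 20 class I heavy chain genes, 6 genes of the class I machinery, 2 class I-like genes and H2-Ke6, which carries the prefix for its place and encodes a steroid and fatty acid dehydrogenase. In the RefSeq gene table of GRCm38.p6, 32 of the 39 lie on chromosome 17, with H2-Oa, H2-DMa, Tap1, Tap2, H2-Ob, H2-Ab1, H2-Aa, H2-Eb1, H2-Eb2 and H2-Ea following each other in that order.

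Whole tarsal joints of male DBA/1JBom mice were profiled in collagen-induced arthritis, 1 joint per animal and per Affymetrix Mouse Gene 1.0 ST array, with skin and visible muscle removed. Arthritis followed an injection of chicken collagen type II in complete Freund's adjuvant and a boost in incomplete adjuvant. The joints came from day 0 to 3 (2 arrays that passed quality control, animals 16 and 18, and animal 57, which did not), week 1 to 2 (animals 33, 43 and 52) and week 3 to 4 (animals 54, 29 and 60) after onset, all at clinical score 3, from joints with declining disease (animals 15, 21 and 10) and from control mice (3 joints, named 1, 2 and 3). By their labels, the joints in decline had held score 3 for more than 2 weeks, with no other duration given. The labels call the controls non-induced. The methods of the study name non-immunised controls for the arrays and adjuvant without collagen for the control group of the model, so whether these 3 mice had adjuvant is not settled, and no source used here gives the age of the mice. Below, a joint or array is one of the 14 that passed unless animal 57 is named. Values are log2 levels after robust multi-array averaging (RMA). Every change is the phase minus control on that scale with its standard error (SE), from limma, and the test was passed where the p, adjusted by the Benjamini-Hochberg method across the 19938 genes, was below 0.05. The 4 phases share the same 3 control joints, so their changes are not independent of each other.

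Class II molecules are pairs of an alpha and a beta chain that show peptides from the endosome to CD4 T cells. Macrophages, dendritic cells and B cells carry them, and interferon-gamma induces them in other cells through the coactivator Ciita. The invariant chain Cd74 escorts the pair to the endosome, where H2-DM exchanges its last fragment for a peptide and H2-O restrains H2-DM. Class I molecules pair a heavy chain with B2m and show cytosolic peptides, cut by the proteasome and by Erap1 and pumped by Tap1 and Tap2, to CD8 T cells. Collagen-induced arthritis in DBA/1 mice, which carry the q haplotype, depends on presentation of collagen peptides by the class II molecule of H2-Aa and H2-Ab1. Mice of this haplotype lack a working H2-E alpha chain. The array was designed on the reference genome, which is of another haplotype, and the effect of strain differences on these probes was not tested.

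The start regions of members with different shifts can be set side by side. Windows of 250 bases before to 50 bases after the start were at hand in RefSeq for 27 of the 39 genes (29 windows, GRCm38.p6). Among them were 6 of the 10 class II genes, but not H2-Ab1, Cd74 or Ciita. The class II genes that passed the test upward, H2-Ab1 and Cd74, thus cannot be shown. The 5 shown are H2-Aa, H2-Eb1, H2-Oa, H2-M10.6 and B2m. Of the class II chains, H2-Aa was above every control in the first 3 phases but did not pass the test. H2-Eb1 showed no such shift, and H2-Oa was the class II gene that fell. H2-M10.6 is a class I gene that fell, and B2m is the class I partner that rose. Capitals mark the Y box core CTGATTGG, a CCAAT-type element of class II promoters bound by NF-Y, on either strand, and in B2m the interferon-response-like GAAANNGAA.
H2-Aa (chr17:34287774-34288073, minus strand): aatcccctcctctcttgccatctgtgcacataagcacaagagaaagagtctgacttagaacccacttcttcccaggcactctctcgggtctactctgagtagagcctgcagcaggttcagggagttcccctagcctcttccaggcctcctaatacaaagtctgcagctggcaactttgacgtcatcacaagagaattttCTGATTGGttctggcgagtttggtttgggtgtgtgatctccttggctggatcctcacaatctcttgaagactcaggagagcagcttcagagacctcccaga
H2-Eb1 (chr17:34305617-34305916, plus strand): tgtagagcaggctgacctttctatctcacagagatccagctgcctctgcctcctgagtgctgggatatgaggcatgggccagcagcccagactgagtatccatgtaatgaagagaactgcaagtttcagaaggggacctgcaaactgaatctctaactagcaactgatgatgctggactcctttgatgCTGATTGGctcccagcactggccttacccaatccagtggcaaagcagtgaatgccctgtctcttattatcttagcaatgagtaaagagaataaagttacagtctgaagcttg
H2-Oa (chr17:34092129-34092428, plus strand): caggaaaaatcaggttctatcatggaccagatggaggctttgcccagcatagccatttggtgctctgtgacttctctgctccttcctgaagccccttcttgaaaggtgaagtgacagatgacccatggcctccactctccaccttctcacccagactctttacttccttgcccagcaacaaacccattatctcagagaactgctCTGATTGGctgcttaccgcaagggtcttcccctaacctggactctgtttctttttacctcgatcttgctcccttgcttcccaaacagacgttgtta
H2-M10.6 (chr17:36811925-36812224, plus strand): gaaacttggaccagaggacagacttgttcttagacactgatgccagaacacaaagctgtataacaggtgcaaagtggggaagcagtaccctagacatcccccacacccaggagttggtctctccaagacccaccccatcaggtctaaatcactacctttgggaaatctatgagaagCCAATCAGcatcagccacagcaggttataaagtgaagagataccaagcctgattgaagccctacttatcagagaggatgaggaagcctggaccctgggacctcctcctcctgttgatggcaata
B2m (chr2:122147437-122147736, plus strand): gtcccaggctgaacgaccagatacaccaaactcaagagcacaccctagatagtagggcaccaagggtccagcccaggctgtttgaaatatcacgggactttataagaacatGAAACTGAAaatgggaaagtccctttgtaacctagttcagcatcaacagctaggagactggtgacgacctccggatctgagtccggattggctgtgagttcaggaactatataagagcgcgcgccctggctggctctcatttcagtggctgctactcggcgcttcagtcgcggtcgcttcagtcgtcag

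The Y box core was found in 14 of the 29 windows of these genes and in 4.1% of all 32851 windows in the table. It began 51 bases before the start in H2-Aa, 62 in H2-Eb1, 46 in H2-Oa and 103 in H2-Eb2, in each on the strand of the gene. In 7 H2-M genes (H2-M1, H2-M10.1, H2-M10.3, H2-M10.4, H2-M10.5, H2-M10.6 and H2-M11) it lay on the other strand, between 70 and 82 bases before the start, and it was also there in both windows of H2-M9 and, 222 bases before the start, in Tap1. The H2-M genes are close relatives of each other, so their matches are not separate cases. GAAANNGAA was found in 2 members (B2m, 139 bases before the start, and Erap1) and in 8.56% of all windows, and TTCNNNGAA, the spacing of STAT sites, in 2 (H2-M3 and H2-M11) and in 8.3%. Both strands were searched and no match of one motif overlapped one of another in these windows. The Y box core was present in class II genes that stood above the controls (H2-Aa), below them (H2-Oa) and in neither position (H2-Eb1). It was absent from the windows of H2-DMa, which stood above the controls at day 0 to 3, and of H2-Ob.

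Few of the 39 genes passed the test, and the largest changes in the first 3 phases were those of the class II genes H2-Ab1 and Cd74. At day 0 to 3, 2 genes were higher and 1 was lower, where 4.46% of all genes were called higher and 3.36% lower. At week 1 to 2, 3 were higher and 3 lower, beside 5.41% and 4.64% of all genes. At week 3 to 4 none passed, beside 0.958% and 0.592%, and in decline none passed, where 0% of all genes were called either way. By limma without adjustment, 7 members at week 3 to 4 and 4 in decline had p under 0.05, beside 23.9% and 12% of all genes, and an ANOVA of each phase and control gave 5 and 3 before adjustment and 0 and 0 after it. With counts this small, nothing particular to these genes was read from the number of calls.

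**Figure D1:**
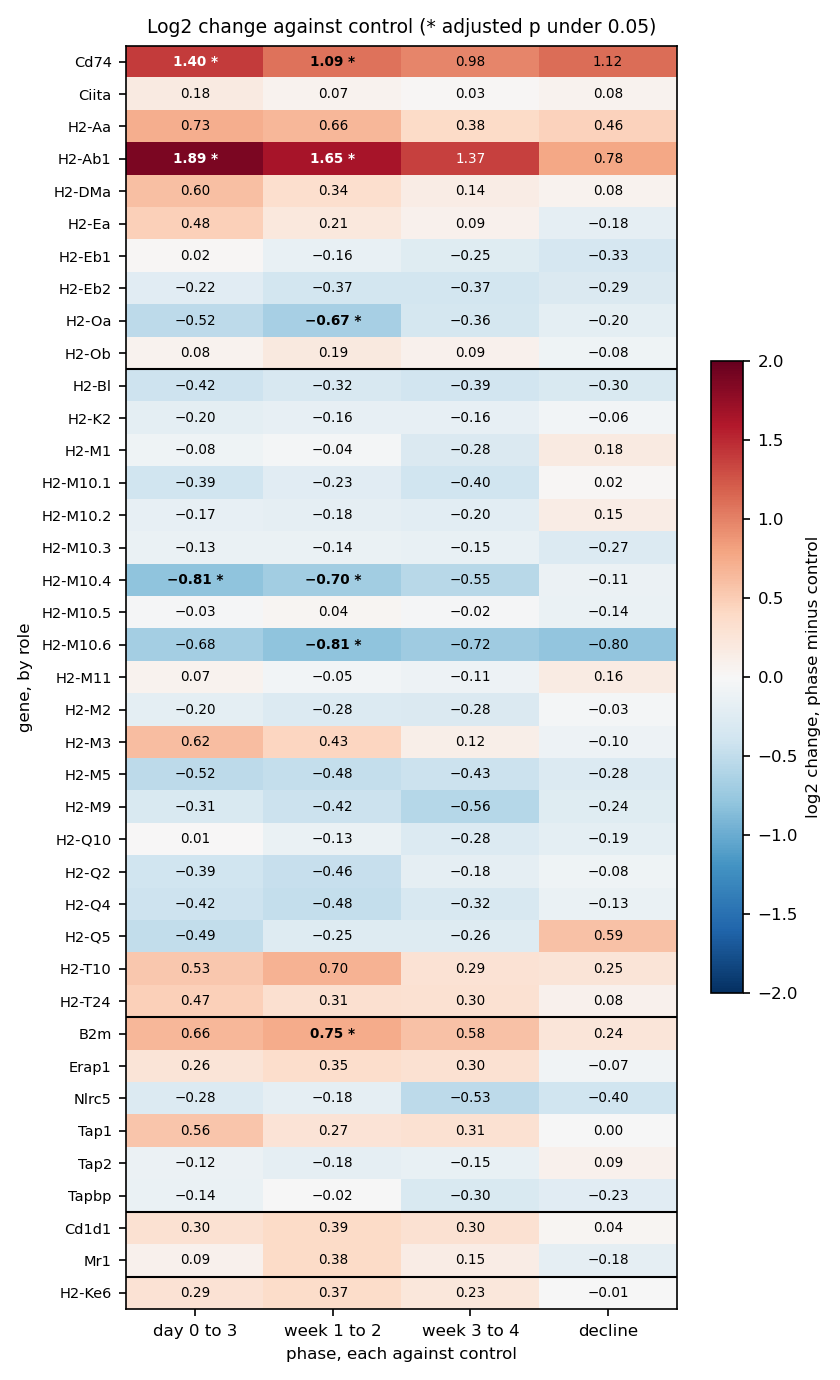
Log2 change of each of the 39 genes in each phase, phase minus control (red higher, blue lower), with genes in rows grouped by role from class II at the top to H2-Ke6 at the bottom. An asterisk marks an adjusted p under 0.05: 3 genes at day 0 to 3, 6 at week 1 to 2 and none in the later phases.

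The class II genes did not move as one. In the first 3 phases Cd74, H2-Ab1 and H2-Aa were above every control in every joint, while H2-Oa was below every control in every joint and the chains of H2-E overlapped the controls. Of the 10 class II genes, 2 passed the test upward at day 0 to 3 and none downward, and 2 upward and 1 downward at week 1 to 2. Their median log2 change was 0.33 at day 0 to 3, 0.20 at week 1 to 2, 0.09 at week 3 to 4 and −0.00 in decline, against −0.12, −0.13, −0.09 and −0.05 for all genes. Every joint was above every control for 5 of the 10 at day 0 to 3 (18.4% of all genes), 3 at week 1 to 2 (13.6%), 3 at week 3 to 4 (10.5%) and 1, Cd74, in decline (3.8%). The reverse, every joint below every control, held for H2-Oa alone in each of the first 3 phases, where 27.8%, 23.3% and 15.4% of all genes did so, and for no class II gene in decline (6.2%).

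H2-Ab1, the beta chain of the class II molecule of this strain, had the largest rise among the 39 genes at day 0 to 3. Its level was 8.52 and 8.27 in day 0 to 3 joints, 8.14, 8.16 and 8.18 in week 1 to 2 joints, 7.66, 7.73 and 8.25 in week 3 to 4 joints, 7.17, 8.15 and 6.55 in decline, and 7.003, 5.54 and 6.99 in controls. All arthritic joints of the first 3 phases lay above the highest control, and the groups overlapped only in decline, through animal 10. The change was 1.89 ± 0.44 (SE) at day 0 to 3, a 3.70-fold rise (adjusted p = 0.0233), and 1.65 ± 0.40 at week 1 to 2, a 3.13-fold rise (adjusted p = 0.0228). At week 3 to 4 it was 1.37 ± 0.40 (adjusted p = 0.0841) and in decline 0.78 ± 0.40 (adjusted p = 0.455). Control 2 was far below the other 2 controls. Without it the changes were 1.40 at day 0 to 3 (adjusted p = 0.0523) and 1.16 at week 1 to 2 (adjusted p = 0.0665). The calls were also lost without any single array of the phase compared, with adjusted p = 0.2 without animal 16 and 0.123 without animal 18 at day 0 to 3, and 0.0536 to 0.0862 at week 1 to 2.

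Cd74, the invariant chain, rose in the same 2 phases and was the 1 class II gene above all controls throughout. It was at 8.65 and 8.56 at day 0 to 3, at 8.08, 8.33 and 8.50 at week 1 to 2, at 7.88, 8.02 and 8.65 at week 3 to 4, at 8.27, 8.60 and 8.11 in decline, and at 7.46, 6.70 and 7.46 in controls. No arthritic joint of these 11 reached as low as the highest control. The change was 1.40 ± 0.27 at day 0 to 3 (2.63-fold, adjusted p = 0.00973) and 1.09 ± 0.24 at week 1 to 2 (2.13-fold, adjusted p = 0.0161). At week 3 to 4 it was 0.98 ± 0.24 (adjusted p = 0.0581) and in decline 1.12 ± 0.24 (adjusted p = 0.145), a size close to that of week 1 to 2 in a comparison where no gene passed. Without control 2 the change was 1.14 at day 0 to 3 (adjusted p = 0.0233) and 0.84 at week 1 to 2 (adjusted p = 0.0523). With only 1 day 0 to 3 array the call was lost, at 1.35 without animal 16 (adjusted p = 0.113) and 1.45 without animal 18 (adjusted p = 0.0814), and at week 1 to 2 it was lost without animal 43 (adjusted p = 0.0709) or 52 (adjusted p = 0.0788).

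H2-Aa, the alpha chain that pairs with H2-Ab1, shifted less. Its level was 8.91 and 8.88 at day 0 to 3, 8.53, 8.87 and 9.08 at week 1 to 2, 8.56, 8.57 and 8.51 at week 3 to 4, 8.18, 8.87 and 8.82 in decline, and 8.21, 8.42 and 7.86 in controls. The joints of the first 3 phases were all above the controls, and animal 15 in decline lay among them. The changes, 0.73 ± 0.23 at day 0 to 3 (adjusted p = 0.0681) and 0.66 ± 0.21 at week 1 to 2 (adjusted p = 0.0561), did not pass.

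H2-DMa, a chain of the peptide exchanger, was at 6.74 and 6.71 at day 0 to 3, against 6.08, 6.32 and 5.95 in controls, a change of 0.60 ± 0.19 (adjusted p = 0.0647). It was at 6.30 to 6.63 at week 1 to 2, 6.12 to 6.36 at week 3 to 4 and 5.92 to 6.47 in decline, overlapping the controls in each. The partner chains H2-DMb1 and H2-DMb2 share a probe set, which was at 7.35 and 7.23 at day 0 to 3, at 6.99 to 7.22 at week 1 to 2, and at 7.38, 6.90 and 6.88 in controls, with no phase past the test over all 35556 probe sets.

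H2-Oa, the alpha chain of the inhibitor of H2-DM that B cells in particular make, was the class II gene that fell. It was at 5.92 and 5.82 at day 0 to 3, at 5.76, 5.50 and 5.91 at week 1 to 2, at 6.02, 6.02 and 6.06 at week 3 to 4, at 6.42, 6.13 and 6.02 in decline, and at 6.80, 6.19 and 6.19 in controls. Joints of the first 3 phases were below every control joint. The change was −0.67 ± 0.18 at week 1 to 2 (adjusted p = 0.0376) and −0.52 ± 0.20 at day 0 to 3 (adjusted p = 0.131). Control 1 was the highest, and without it the change at week 1 to 2 was −0.46 (adjusted p = 0.0747). Its partner H2-Ob was at 5.83 and 5.81 at day 0 to 3, at 5.79 to 6.17 at week 1 to 2, at 5.65 to 5.98 at week 3 to 4, at 5.58 to 5.81 in decline, and at 5.68, 5.83 and 5.72 in controls, and its change did not pass in any phase.

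The chains of H2-E showed no such shift. H2-Eb1 was at 6.76 and 6.67 at day 0 to 3, 6.53, 6.37 and 6.72 at week 1 to 2, 6.60, 6.23 and 6.52 at week 3 to 4, 6.30, 6.15 and 6.65 in decline, and 6.98, 6.86 and 6.25 in controls. The groups overlapped in every phase, and its change at day 0 to 3 was 0.02 ± 0.23. H2-Eb2 was at 5.49 and 5.43 at day 0 to 3, at 4.99 to 5.62 at week 1 to 2, at 5.26 to 5.38 at week 3 to 4, at 4.88 to 5.84 in decline, and at 5.56, 6.11 and 5.37 in controls. It had changes of −0.22 to −0.37 over the 4 phases and H2-Ea, listed in RefSeq as a transcribed pseudogene, of −0.18 to 0.48, none past the test. H2-Ea had exactly the same value, 6.39, in all 3 joints of week 3 to 4. Of the 39 genes, 13 had a value repeated on 2 or more of the 14 arrays, and 5 on 3 or more. Of all genes, 36.2% and 15.9% did. The part of such repeats in the spread within a group was not tested.

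Ciita, the coactivator that sets class II transcription, was at 6.29 and 6.22 at day 0 to 3, at 6.08, 6.11 and 6.26 at week 1 to 2, at 6.04, 6.13 and 6.13 at week 3 to 4, at 6.01, 5.91 and 6.54 in decline, and at 6.13, 6.20 and 5.89 in controls. The joints of day 0 to 3 were just above the controls and those of the other phases overlapped them, and the change was 0.18 ± 0.19 at day 0 to 3 and 0.07 ± 0.17 at week 1 to 2. The other 7 class II regulators listed (Rfx5, Rfxap and Rfxank of the X box complex, Nfya, Nfyb and Nfyc of NF-Y, and Creb1) gave 0 of 7 past the test in any phase, with Creb1 at 0.51 the furthest from control at day 0 to 3 (adjusted p = 0.21).

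**Figure D2:**
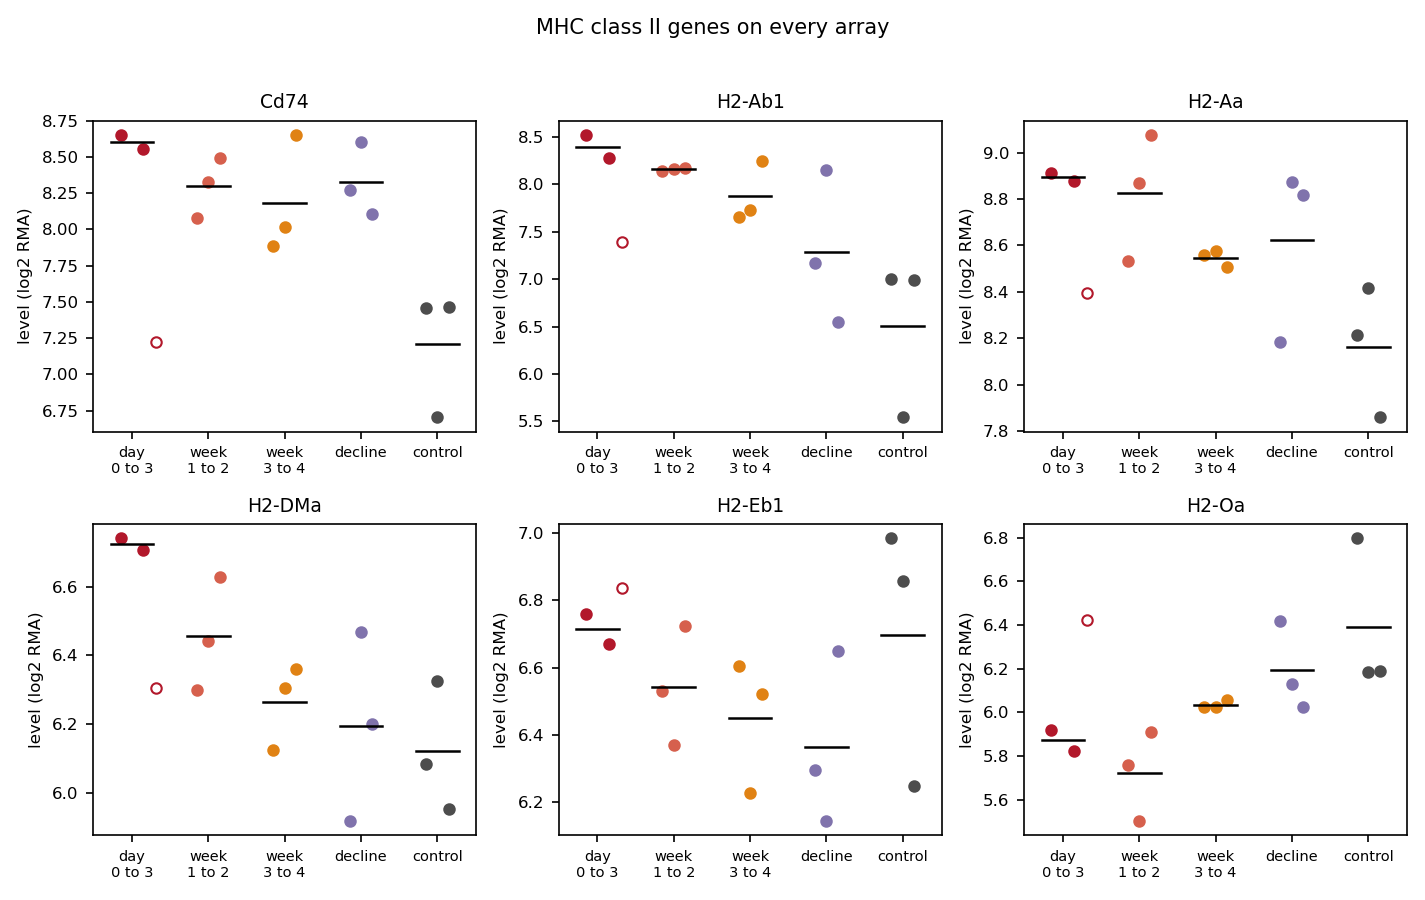
Level (log2 RMA) of 6 class II genes on every array, by group, with a point per joint and a bar at the mean of the joints that passed quality control, and the open circle for animal 57. Among the joints that passed, Cd74, H2-Ab1 and H2-Aa stand above every control in the first 3 phases, H2-Oa below, and H2-Eb1 overlaps.

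Of the class I heavy chains, the classical genes H2-K1 and H2-D1 were measured only by probe sets that name both, since their sequences are nearly the same. One of these, which names H2-K1 first, was at 9.12 and 9.08 at day 0 to 3, at 8.88, 9.31 and 9.45 at week 1 to 2, at 8.87, 8.72 and 8.88 at week 3 to 4, at 8.64, 9.12 and 8.49 in decline, and at 8.18, 8.22 and 8.78 in controls. It passed the test over all probe sets at week 1 to 2, with a 1.76-fold rise (adjusted p = 0.0415). The other was at 9.18 and 9.06 at day 0 to 3, at 9.01, 8.93 and 8.96 at week 1 to 2, and at 8.83, 8.93 and 8.99 in controls, and it did not pass in any phase (1.03-fold at week 1 to 2, adjusted p = 0.818). The probe sets that name this pair thus differed from each other.

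Another shared probe set, for the non-classical H2-T9, H2-T22 and H2-T10, was at 7.88 and 7.67 at day 0 to 3, at 8.03, 8.26 and 8.15 at week 1 to 2, and at 7.16, 6.93 and 6.96 in controls, with a 2.19-fold change at week 1 to 2 that did not pass (adjusted p = 0.0765). H2-T10 also had a probe set of its own, at 5.91, 6.04 and 6.02 at week 1 to 2, against 4.59, 5.54 and 5.75 in controls (change 0.70 ± 0.25, adjusted p = 0.0833). Both read above every control in every joint of the first 2 phases. H2-T23, which shows class I leader peptides to natural killer cells, shares a probe set with H2-T-ps. Its level was 7.15 on the higher day 0 to 3 array, 6.93 on the lowest of week 1 to 2 and 6.89, 7.16 and 6.78 in controls, and it did not pass (1.14-fold at day 0 to 3, adjusted p = 0.565).

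The 20 class I heavy chain genes with a probe set of their own were all non-classical genes or pseudogenes. None passed upward in any phase against control, and 1 passed downward at day 0 to 3 and 2 at week 1 to 2, where 3.36% and 4.64% of all genes were lower. Their median log2 change was −0.20 at day 0 to 3, −0.21 at week 1 to 2, −0.27 at week 3 to 4 and −0.09 in decline, beside the negative medians of all genes given above. Every joint was below every control for 8 of the 20 at day 0 to 3, 5 at week 1 to 2, 8 at week 3 to 4 and 1 in decline, beside 27.8%, 23.3%, 15.4% and 6.2% of all genes. Every joint was above every control for 2, 2, 0 and 1 of the 20, beside 18.4%, 13.6%, 10.5% and 3.8%. When each array was scaled to one median and standard deviation (SD), the median of all genes at day 0 to 3 was −0.01 and the heavy chain median −0.02, so the negative median was not seen under that scaling.

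The heavy chain genes called lower were 2 of the H2-M10 family, whose products are known from sensory neurones of the vomeronasal organ. H2-M10.6 was below the median of all probe sets on every array. Its highest level was 4.82, in control 2, where that median was 6.30. H2-M10.4 was below the array median in every joint of the first 3 phases, but above it in decline animals 21 and 10 and in control 2. Whether signal at these levels stands above background was not tested. H2-M10.4 was at 5.23 and 5.50 at day 0 to 3, at 5.29, 5.41 and 5.70 at week 1 to 2, at 5.70, 5.70 and 5.45 at week 3 to 4, at 5.67, 6.19 and 6.32 in decline, and at 6.096, 6.48 and 5.93 in controls. Joints of the first 3 phases were all below the controls, with a change of −0.81 ± 0.22 at day 0 to 3 (adjusted p = 0.044) and −0.70 ± 0.20 at week 1 to 2 (adjusted p = 0.0431). These calls were lost when any single array of the compared phase was left out, and without control 2 the changes were −0.65 (adjusted p = 0.121) and −0.55 (adjusted p = 0.14).

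H2-M10.6 was at 3.99 and 3.95 at day 0 to 3, at 4.10, 3.55 and 3.87 at week 1 to 2, at 4.01, 3.78 and 4.00 at week 3 to 4, at 3.92, 4.06 and 3.58 in decline, and at 4.66, 4.82 and 4.46 in controls. It was below every control in all 11 arthritic joints, decline included, and it was the 1 heavy chain gene to be so. The change was −0.81 ± 0.18 at week 1 to 2 (adjusted p = 0.0148), −0.68 ± 0.20 at day 0 to 3 (adjusted p = 0.0533), −0.72 ± 0.18 at week 3 to 4 (adjusted p = 0.0576) and −0.80 ± 0.18 in decline (adjusted p = 0.151). With one median and SD per array it was −0.44 at week 1 to 2 (adjusted p = 0.291), and after a second quantile normalisation −0.50 (adjusted p = 0.185). The other members of the family had changes between −0.40 and 0.15, with H2-M10.1 averaging 4.00 over the 14 arrays, H2-M10.2 5.66, H2-M10.3 5.90 and H2-M10.5 3.66, and none passed.

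H2-M3, which presents formylated bacterial peptides, was the heavy chain gene furthest above control at day 0 to 3. It was at 7.45 and 7.52 at day 0 to 3, at 7.16, 7.35 and 7.36 at week 1 to 2, at 6.72, 7.17 and 7.06 at week 3 to 4, at 6.42, 7.54 and 6.32 in decline, and at 7.06, 6.93 and 6.60 in controls. The joints of the first 2 phases were above every control, with changes of 0.62 ± 0.30 (adjusted p = 0.203) and 0.43 ± 0.27 (adjusted p = 0.289).

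The remaining heavy chain genes did not pass against control. In the Q region H2-Q2 averaged 6.85 and H2-Q4 5.34 over the 14 arrays. Both were below every control in the joints of the first 3 phases, with changes of −0.46 ± 0.17 (adjusted p = 0.0945) and −0.48 ± 0.15 (adjusted p = 0.0552) at week 1 to 2. H2-Q10, known as a secreted class I protein of liver, averaged 6.08 and overlapped the controls in each phase. H2-T24 averaged 7.08, and in the M region H2-M1 averaged 3.66, H2-M2 5.31, H2-M5 5.62, H2-M9 5.78 and H2-M11 4.09, with H2-M5 below every control in the first 3 phases (−0.52 ± 0.26 at day 0 to 3). The transcribed pseudogenes H2-K2 and H2-Bl averaged 4.80 and 4.79.

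B2m, the light chain of every class I molecule, rose at week 1 to 2. It was at 12.21 and 12.21 at day 0 to 3, at 12.13, 12.50 and 12.26 at week 1 to 2, at 12.16, 12.03 and 12.21 at week 3 to 4, at 11.96, 11.96 and 11.45 in decline, and at 11.91, 11.01 and 11.72 in controls. The joints of the first 3 phases were above every control. The change was 0.75 ± 0.22 at week 1 to 2, a 1.68-fold rise (adjusted p = 0.0456), and 0.66 ± 0.24 at day 0 to 3 (adjusted p = 0.107). The call held in 9 of 28 alternative settings. Without control 2 the change at week 1 to 2 was 0.48 (adjusted p = 0.141), and with one median and SD per array it was 0.05 (adjusted p = 0.886), while at day 0 to 3 it turned to −0.03. The spread over genes moved with this result: the SD over all genes of an array was 1.48 to 1.65 in the first 3 phases, 1.28 to 1.59 in decline and 1.22 to 1.46 in controls, lowest in control 2, and its part in the B2m values was not tested beyond that scaling.

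The peptide supply of class I gave no calls. Tap1, a chain of the peptide pump, was at 6.80 and 6.52 at day 0 to 3, at 6.39, 6.30 and 6.41 at week 1 to 2, at 6.49, 6.33 and 6.41 at week 3 to 4, at 6.06, 6.49 and 5.74 in decline, and at 6.11, 6.29 and 5.90 in controls. It lay above every control in the first 3 phases, with a change of 0.56 ± 0.20 at day 0 to 3 (adjusted p = 0.106). Tap2, its partner, was at 6.69 and 6.64 at day 0 to 3 and at 6.57, 6.68 and 7.10 in controls (change −0.12 ± 0.18). In the later phases Tap2 lay at 6.53 to 6.67 at week 1 to 2, 6.49 to 6.75 at week 3 to 4 and 6.67 to 7.06 in decline, overlapping the controls throughout.

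Tapbp, which holds the empty class I molecule at the pump, was at 7.08 and 7.02 at day 0 to 3 and at 7.27, 7.09 and 7.20 in controls, and Erap1, which trims peptides, at 6.79 and 6.39 at day 0 to 3 and at 6.45, 6.26 and 6.27 in controls. From week 1 to 2 through decline Tapbp ran between 6.75 and 7.29 and Erap1 between 5.69 and 7.16, and neither passed in any phase. Tapbp is also named, with the ribosomal protein gene Rps3a1, by 2 further probe sets that cannot be assigned to either gene, 1 of which passed over all probe sets at week 1 to 2 (3.02-fold, adjusted p = 0.0375) and 1 of which did not (2.64-fold, adjusted p = 0.0824). Nlrc5, the class I counterpart of Ciita, had 19 probe sets, none past the test against control in any phase. On the one with the highest mean it was at 8.97 and 9.21 at day 0 to 3, with 9.07 to 9.33 at week 1 to 2, 8.53 to 8.99 at week 3 to 4 and 8.72 to 9.36 in decline, against 9.08, 10.12 and 8.89 in controls, and its changes on all 19 ran from −0.80 to 0.33 at day 0 to 3.

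Of the class I-like genes, Cd1d1, which presents lipids to natural killer T cells, was at 5.35 and 5.23 at day 0 to 3, at 5.28, 5.23 and 5.62 at week 1 to 2, and at 4.88, 5.07 and 5.02 in controls. In the later phases Cd1d1 spread widely, with a lowest level of 4.79 at week 3 to 4 and 4.71 in decline. Mr1, which presents microbial vitamin B metabolites, was at 6.82 and 6.96 at day 0 to 3, at 7.12, 7.17 and 7.26 at week 1 to 2, at 6.91 to 6.98 at week 3 to 4 and at 6.22 to 6.82 in decline, against 6.36, 6.96 and 7.08 in controls. Both were above every control at week 1 to 2, with changes of 0.39 ± 0.27 and 0.38 ± 0.20 that did not pass. H2-Ke6 was at 7.72 and 7.54 at day 0 to 3 and at 7.32, 7.03 and 7.66 in controls.

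**Figure D3:**
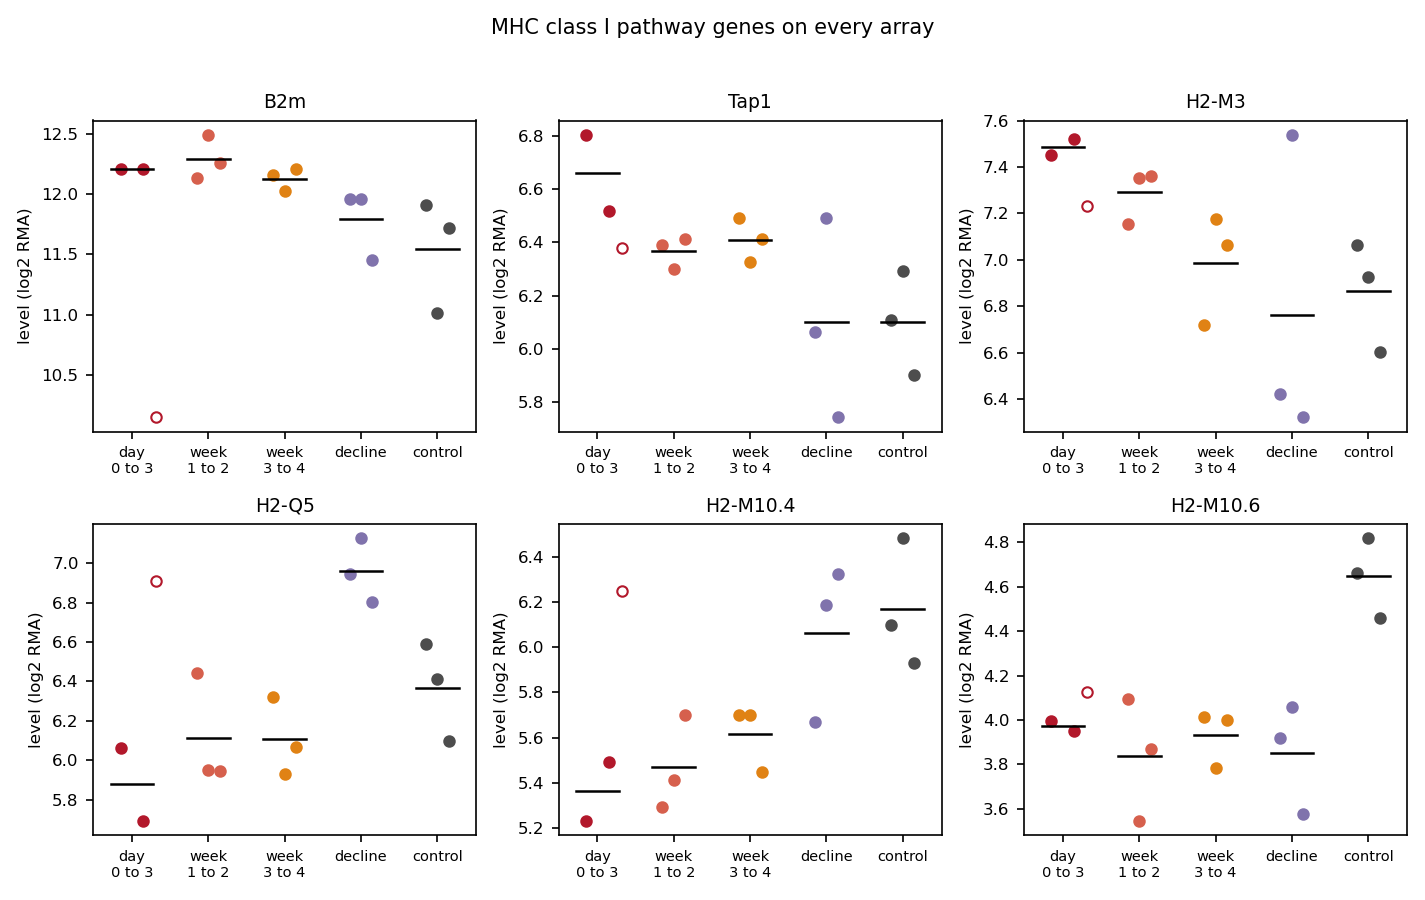
Level (log2 RMA) of 6 class I pathway genes on every array, by group, with a point per joint, a bar at the mean of the joints that passed quality control, and the open circle for animal 57. Among the joints that passed, B2m and Tap1 stand above every control in the first 3 phases, and H2-M10.4 and H2-M10.6 below. H2-Q5 is above every control in decline only among these joints, and the open circle of animal 57 is above every control too.

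Between phases the 39 genes gave few calls. From day 0 to 3 to week 1 to 2 and from week 1 to 2 to week 3 to 4 none passed by limma, in comparisons where 0.00502% of all genes, 1 gene each, did, and no member had an unadjusted p under 0.05. Between decline and week 3 to 4 none passed (0% of all genes), with 2 members under an unadjusted p of 0.05, beside 6.13% of all genes. The ANOVA of the groups gave 0 after adjustment in these 3 comparisons and 1, 2 and 1 before it. Decline against the first 2 phases together gave 1 member higher, H2-Q5, and 0 lower, beside 2.67% and 2.08% of all genes.

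H2-Q5, listed in RefSeq as a transcribed pseudogene, was at 6.94, 7.13 and 6.80 in decline, against 6.06 and 5.69 at day 0 to 3 and 6.44, 5.95 and 5.95 at week 1 to 2. The groups did not overlap, and the difference was 0.96 ± 0.17, 1.95-fold (adjusted p = 0.011). Week 3 to 4 joints were at 6.32, 5.93 and 6.07 and controls at 6.59, 6.41 and 6.098, so the decline joints were also above every control (0.59 ± 0.19, adjusted p = 0.276). Epidermal keratin and envelope genes moved in the same comparison: 7 of the 7 measured markers passed upward, with a mean log2 level of 10.58 to 11.57 in decline and 5.72 to 6.59 in the first 2 phases. Their mean was also high, at 11.12 and 11.02, in week 3 to 4 animals 29 and 60 and, at 10.53, in control 3, where H2-Q5 was at 5.93, 6.07 and 6.098. The part of epidermis in the H2-Q5 values was not tested further.

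No other member passed between decline and the first 2 phases. Of the 10 class II genes 2 had a positive difference (median −0.23), of the 6 machinery genes 1 (median −0.28) and of the 20 heavy chain genes 13 (median 0.14), beside a median of 0.04 for all genes. H2-Ab1 had a difference of −0.99 ± 0.36 (adjusted p = 0.138), H2-M3 of −0.63 (adjusted p = 0.159), B2m of −0.46 (adjusted p = 0.21) and Tap1 of −0.41 (adjusted p = 0.177), while that of Cd74 was −0.13 ± 0.22 (adjusted p = 0.797). H2-M10.4 differed by 0.64 ± 0.18 (adjusted p = 0.0604).

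Enzymes of the endosome process the cargo of class II molecules. Of 8 measured genes of endosomal antigen processing, 6 passed upward at day 0 to 3 and 5 at week 1 to 2, and none downward. Their median change was 1.14 and 1.04. Of all genes, 4.46% and 5.41% were called higher in these phases and 3.36% and 4.64% lower. These shares also stand beside the counts of the lists below, and all lists were chosen with earlier results of these data known. Ctss, the protease that trims the invariant chain, rose by 1.78 ± 0.36 at day 0 to 3 (3.44-fold, adjusted p = 0.0114) and by 1.54 at week 1 to 2 (adjusted p = 0.0121). Ifi30, the thiol reductase that opens disulphide bonds of antigens, rose by 1.86 ± 0.32 at day 0 to 3 (3.63-fold, adjusted p = 0.00455) and by 1.303 at week 1 to 2 (adjusted p = 0.0144). Lgmn, an asparagine endopeptidase, rose at day 0 to 3 by 2.04 ± 0.51 (adjusted p = 0.0297), and Ctsl, Ctsb and the cathepsin inhibitor Cst3 passed in both phases. The mean log2 level of the 8 genes was 9.84 to 10.02 at day 0 to 3, 9.48 to 9.82 at week 1 to 2, 9.16 to 9.76 at week 3 to 4, 8.88 to 9.42 in decline and 8.30 to 9.04 in controls. Marchf1, the ubiquitin ligase that removes class II from the surface, had a change of −0.04 ± 0.19 at day 0 to 3.

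Class I peptide production and folding gave fewer calls. Of the 5 genes of the immunoproteasome and its PA28 cap, 0 passed in any phase against control, with Psme2 furthest from it at 1.53 ± 0.46 at day 0 to 3 (adjusted p = 0.0607) and 1.34 at week 1 to 2 (adjusted p = 0.0552), and Psmb8 and Psmb9 at 0.60 and 0.39 at day 0 to 3. Of 5 folding and loading genes, 2 passed upward at day 0 to 3 and 1 at week 1 to 2. These were Pdia3, the disulphide isomerase of the loading complex (2.63-fold at day 0 to 3, adjusted p = 0.0472, and a change of 1.37 at week 1 to 2, adjusted p = 0.0301), and Hspa5, the general chaperone of the endoplasmic reticulum (2.86-fold at day 0 to 3, adjusted p = 0.00855).

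On the side of signals, 1 of 10 measured genes of the interferon-gamma axis passed at day 0 to 3, the receptor chain Ifngr1 (1.82-fold, adjusted p = 0.0455), and none at week 1 to 2. The receptor kinases Jak2 and Jak1 had changes of 1.27 ± 0.38 (adjusted p = 0.0586) and 0.83 ± 0.39 (adjusted p = 0.196) at day 0 to 3. Ifng itself averaged 5.69 at day 0 to 3 and 5.62 at week 1 to 2, against 5.91 in controls (change −0.23 ± 0.26 at day 0 to 3), and Irf1, a transcription factor it induces, had a change of −0.02 ± 0.27. None of 7 co-stimulation genes passed in any phase, with Cd86, which binds CD28 on T cells, at 1.04 ± 0.41 at day 0 to 3 (adjusted p = 0.129), and none of 7 genes of T cell receivers, among them Cd4 (0.35 ± 0.18) and Cd8a (−0.33 ± 0.24).

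Whole joints hold many cell types, and in such bulk RNA more cells of a type and more RNA per cell cannot be told apart. Beside the rises of Cd74 and H2-Ab1, 4 of 9 measured macrophage markers passed upward at day 0 to 3 (Cd68, Adgre1, Msr1 and Fcgr1), and at week 1 to 2, 2 passed upward (Msr1 and Fcgr1) and 1, Cd163, downward. Their mean level was 8.74 to 9.04 at day 0 to 3, 8.33 to 8.71 at week 1 to 2, 8.06 to 8.71 at week 3 to 4, 7.46 to 8.44 in decline and 7.42 to 8.19 in controls. Msr1, a scavenger receptor, had the largest of these changes, 2.87 ± 0.41 at day 0 to 3 (7.31-fold, adjusted p = 0.00199).

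Of the dendritic cell markers 0 of 9, and of the B cell markers 0 of 6, passed in any phase. Their mean levels were 6.001 to 6.011 and 5.86 to 5.87 at day 0 to 3, against 5.92 to 6.11 and 5.82 to 6.26 in controls. Single dendritic cell markers differed from each other. Itgax was above every control in the first 3 phases (0.51 ± 0.19 at day 0 to 3, adjusted p = 0.106 by limma). Batf3 was below every control in the same phases (−0.28 ± 0.21 at day 0 to 3, adjusted p = 0.402). Of 8 T cell markers 1, Cd3g, passed upward at day 0 to 3 (2.71-fold, adjusted p = 0.0445), while Cd3e had a change of −0.14 ± 0.27. Skeletal muscle markers went the other way, with 7 of 8 lower at day 0 to 3 and a mean level of 9.05 to 9.12, against 11.14 to 11.85 in controls. Of 6 natural killer cell markers 1, Eomes, passed downward at week 1 to 2. The mean level of these 6 was below every control in every arthritic joint, at 5.03 to 5.40 against 5.46 to 5.73. Of 8 neutrophil markers 1, Csf3r, passed upward at day 0 to 3. In that phase S100a8 (−0.39), Mpo (−0.50) and Elane (−0.55) had negative changes and the rest positive ones. Of 7 epidermal markers 0 passed against control in any phase. The part of cell make-up in the values of the 39 genes was not tested. As a check of the tissue, the 8 joint tissue genes (cartilage, bone and tendon) averaged 8.92 to 9.73 in controls. They averaged 9.46 to 9.70 at day 0 to 3, within the control range. At week 1 to 2 they were at 9.87 to 10.02 and at week 3 to 4 at 9.93 to 10.12, above it. Of these 8, 1 passed upward at day 0 to 3 (Ibsp), 3 at week 1 to 2 (Ibsp, Tnmd and Col1a1) and 2 at week 3 to 4 (Ibsp and Tnmd). None passed downward, but Alpl (−0.77 ± 0.23), Col2a1 (−0.42 ± 0.20) and Comp (−0.10 ± 0.20) had negative changes at day 0 to 3. The rest had positive ones.

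**Figure D4:**
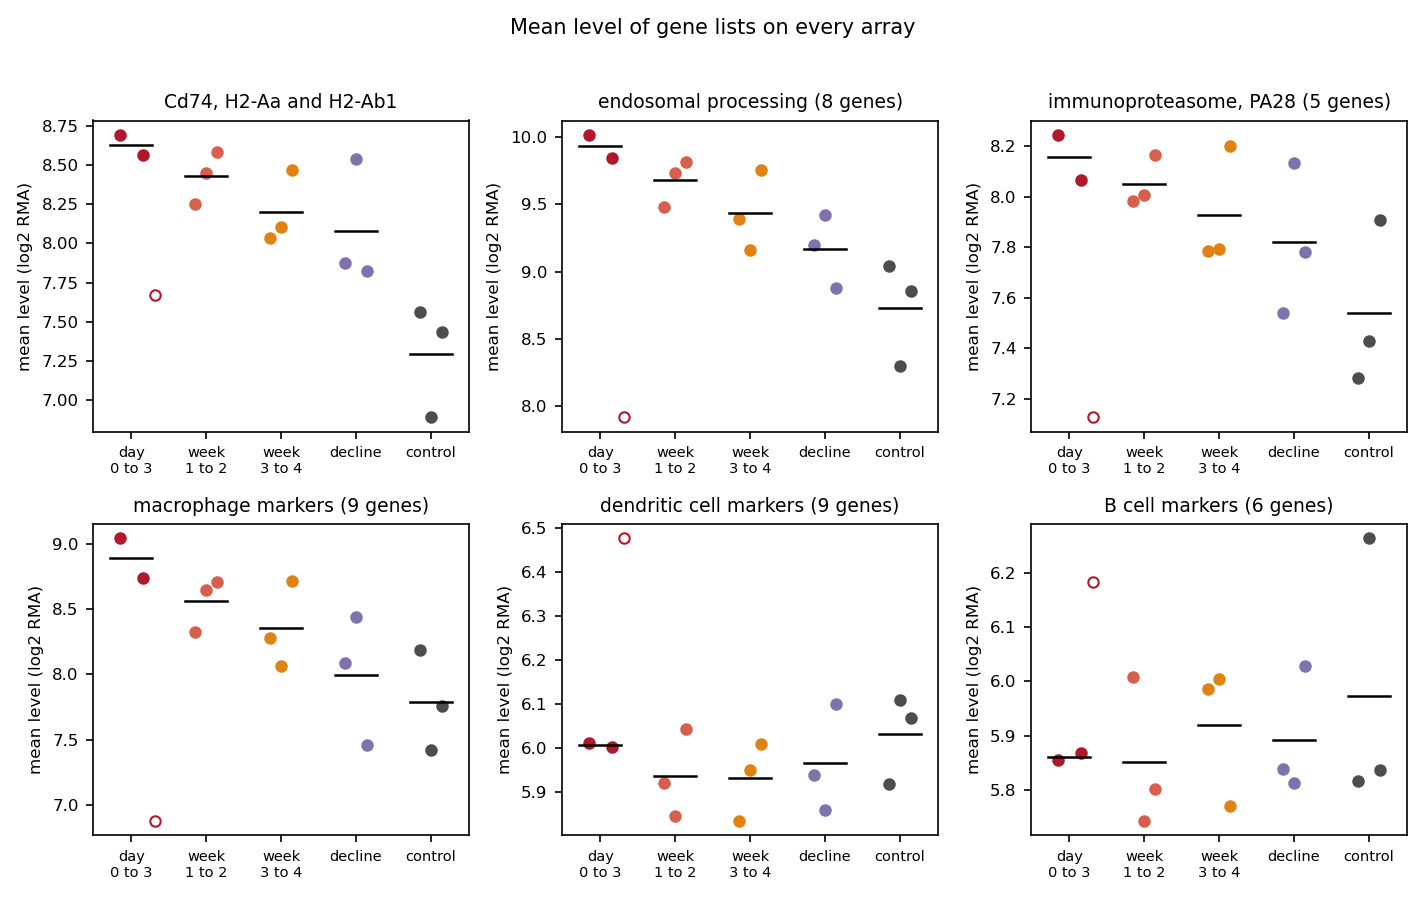
Mean level (log2 RMA) of gene lists on every array, by group, with a point per joint, a bar at the mean of the joints that passed quality control, and the open circle for animal 57. Cd74, H2-Aa and H2-Ab1, endosomal processing and macrophage markers are high in both day 0 to 3 joints that passed, and the dendritic cell and B cell markers overlap the controls.

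The calls of H2-Ab1 and Cd74 held under each scaling of the arrays, and that of B2m did not. Across 7 ways of choosing, weighting and scaling the arrays, the log2 change of H2-Ab1 was 1.40 to 1.95 at day 0 to 3 and 1.16 to 1.73 at week 1 to 2, and that of Cd74 0.94 to 1.46 and 0.84 to 1.17. H2-Aa, which had not passed, was at 0.36 at day 0 to 3 and 0.29 at week 1 to 2 after a second quantile normalisation. The quality-control failure of animal 57 mattered to the calls. With its array in the fit none of the 39 genes passed in any comparison, H2-Ab1 at day 0 to 3 being 1.55 (adjusted p = 0.155) and Cd74 0.94 (adjusted p = 0.325).

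**Figure D5:**
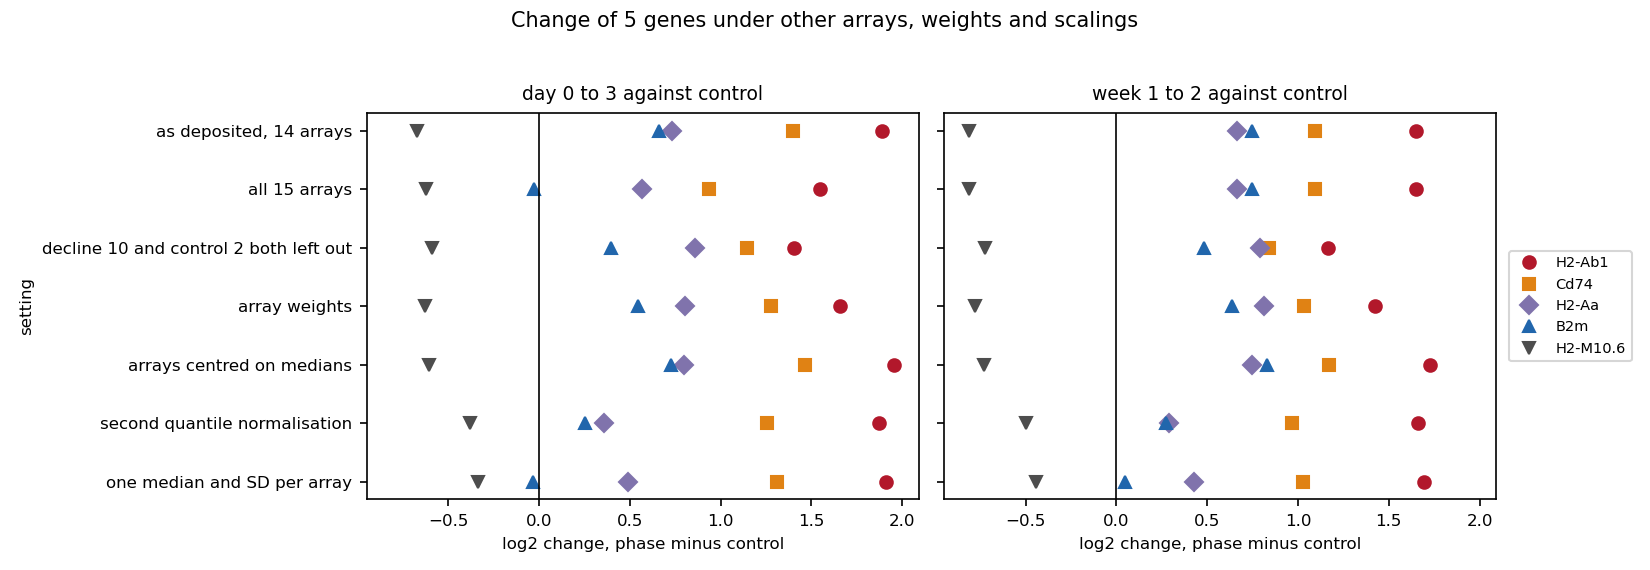
Log2 change (phase minus control) of 5 genes at day 0 to 3 (left) and week 1 to 2 (right), under the deposited values of 14 arrays and under 6 other choices of arrays, weights and scaling, 1 per row. H2-Ab1, Cd74 and H2-Aa stay right of 0 and H2-M10.6 left of 0 in all rows, and B2m falls to about 0 when animal 57 enters (day 0 to 3) or when each array is set to one median and SD.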

How the data were processed

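RNA from single tarsal joints was amplified with a NuGEN Pico kit and hybridised to Affymetrix Mouse Gene 1.0 ST arrays, and the authors deposited log2 values after RMA in R 2.15 with the affy package; no version of affy is given in the sources used here. The array of animal 57 failed the study's quality control and was left out, which gave 14 arrays. Probe sets that name 1 gene were kept, the one with the highest mean for a gene with several, which gave 19938 genes. A model with 5 group means was fitted with limma 3.58.1 (R 4.3.3), and p-values were adjusted over all genes by Benjamini-Hochberg, with a threshold of 0.05. All 39 members are named with a level. Genes of the pathway lists are named where they passed against control, with some others that were not always those furthest from it. Ifng, Irf1, Marchf1, Cd4, Cd8a and the marker genes named were chosen with their values known, and skeletal muscle markers are given by count. The members and lists were chosen with earlier results of these data known. Windows and chromosomes came from RefSeq, GRCm38.p6. Alternatives covered the arrays used, weights, scaling, level filters, probe set choice, the test and each array left out. The fit was tested on simulated data. Each array is a separate animal. Precision is limited by how few arrays each group holds.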

Additional observations from a re-analysis of the deposited data

Results flagged for a closer look

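H2-Q5 differed between decline and the first 2 phases by 0.96 (limma, adjusted p = 0.011), with every decline joint above every earlier joint. Against the controls it also lay on opposite sides. It was above every control in decline and below every control in the 2 day 0 to 3 joints that passed quality control. This puts decline 1.08 above day 0 to 3, and the contrast was not tested. On the day 0 to 3 array that failed, animal 57, H2-Q5 was at 6.91, above every control and within the decline range of 6.80 to 7.13.

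The array of animal 57 failed quality control and was used only in the fit of all 15 arrays. It had 17 of the 39 genes above every control and 7 below, beside 36.3% and 27.4% of all genes. By role these were 4 of 10 class II genes above, 8 above and 3 below of 20 heavy chain genes, 3 above and 3 below of 6 machinery genes, both class I-like genes above and H2-Ke6 below. Cd74 was at 7.22 and H2-Ab1 at 7.39 on this array, against 7.46, 6.70 and 7.46 and 7.003, 5.54 and 6.99 in controls, and B2m was at 10.15, below every control. The SD over genes was 1.08 on it and 1.22 to 1.46 in controls, and its part in these values was not tested.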

How the results depend on the processing

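No result turned direction past the test. For day 0 to 3, where 3 of the 39 genes passed, the count was 0 with all 15 arrays, with only the groups compared and by ANOVA, 5 without decline 10 and control 2 together and with arrays centred on their medians, and 7 with array weights. For week 1 to 2, where 6 passed, it was 0 with all 15 arrays and by ANOVA, 3 with only the groups compared, with a second quantile normalisation, with one median and SD per array and over all probe sets, and 2 with a fold of at least 2 added. For decline against week 0 to 2, where 1 passed, it was 0 with all 15 arrays, by ANOVA and with a fold of at least 2 added, 2 without decline 10 and control 2 together and with a group mean of at least 6, and 9 with array weights.

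Leaving out 1 array gave 0 to 6 at day 0 to 3 (0 without animal 16 or 18, 1 without control 2, 5 without control 1 or decline 21, 6 without decline 10), 0 to 9 at week 1 to 2 (0 without animal 43 or 52, 2 without animal 33 or control 2), 0 to 3 at week 3 to 4 (3 without decline 10, 2 without control 1) and 0 to 3 for decline against week 0 to 2. The causes were not tested. The calls of Cd74 held in 23 of 28 alternatives in each phase, those of H2-Ab1 in 22, H2-Q5 in 24, H2-M10.6 in 20 of 27, H2-Oa in 12, H2-M10.4 in 11 and 10, and B2m in 9. No paired analysis was possible because the groups share no animal numbers. With 2 or 3 arrays a group, a difference that missed the test is not shown to be absent.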
